A study of Homo sapiens with 12 samples.

Results

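The 34 genes described here encode enzymes of cholesterol and fatty acid synthesis and the proteins that govern their transcription through the sterol regulatory element-binding proteins (SREBPs). They were taken by name from a list of sterol, SREBP and fatty acid synthesis genes, which was chosen with earlier results of these data known. All 34 were among the 22784 gene symbols of the expression table. They were divided by role into 8 genes of the mevalonate arm, 11 of the squalene and sterol arm, 6 that control SREBP or move sterol, and 9 of fatty acid synthesis.

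Cholesterol is built from acetyl-CoA through mevalonate, isoprenoid diphosphates, squalene and lanosterol, and fatty acids are built from the same acetyl-CoA through malonyl-CoA. When sterol in the endoplasmic reticulum is scarce, the escort protein SCAP carries the SREBP precursors to the Golgi, where proteolysis frees the part that enters the nucleus and activates these genes. When sterol is plentiful, INSIG proteins hold SCAP and its cargo in the endoplasmic reticulum, so the genes of the pathway often move together.

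The cells were SK-UT-1, an established line of human uterine leiomyosarcoma, a malignant tumour of uterine smooth muscle. They received DMSO vehicle (labelled VEH), 5 µM JQ1 or 5 µM I-BET 762 for 48 h. Both compounds inhibit BET proteins, the bromodomain readers of acetylated histones, and the comparisons ask how that inhibition alters the transcriptome. The analysis covered 3 DMSO, 4 JQ1 and 3 I-BET 762 libraries of strand-specific total RNA. DMSO replicate 16 and I-BET 762 replicate 24 have no column in the expression table and were not analysed here. The study's methods state that outlier samples were excluded, and whether these replicates were among them is not stated. No label says that the libraries came from separate cultures, so the p-values measure only the spread between these libraries, which may be technical.

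Between 35564586 and 39658989 reads per library were assigned to genes. The markers of smooth muscle in the table, 7 of the 8 listed, summed to between 20340 and 20968 normalized counts in DMSO, 10619 to 11229 in JQ1 and 11758 to 12327 in I-BET 762. Their list changed with treatment beside every result below, and its part in the results was not tested. Of 6 tested markers, 5 were called down against DMSO by each inhibitor, against 22.8% of all genes with JQ1 and 17.9% with I-BET 762. SMTN went the other way, higher by a log2 fold change of 0.19 with JQ1 and 0.20 with I-BET 762. MYOCD, the myocardin gene that drives the smooth muscle programme, had at most 3 reads in any library, so that defining marker was near 0. Fat and liver cell markers summed to between 8.02 and 18.2 normalized counts in every library, and ADIPOQ, FABP4 and ALB had at most 3 reads in each. Immune and endothelial markers summed to between 20.7 and 43.5, mostly from CD14, and CD14 was higher in JQ1 than in I-BET 762. In such bulk RNA, fewer cells of a type and less RNA per cell cannot be told apart.

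Testing required 10 normalized counts or more in 3 or more libraries, which left 14839 genes, among them all 34 members. Below, a gene "rose" or "fell" when limma gave a Benjamini-Hochberg adjusted p under 0.05, and it was "called" when it also differed by more than 1.5-fold. With JQ1, 3 members (8.82%) were called up, against 13.3% of all tested genes, and 4 (11.8%) were called down, against 22.8%. By adjusted p alone, 15 members (44.1%) rose with JQ1, against 36.0% of all genes, and 11 (32.4%) fell, against 35.6%. With I-BET 762, 4 members (11.8%) were called up, against 8.96% of all genes, and 1 (2.94%) was called down, against 17.9%. By adjusted p alone, 11 members (32.4%) rose with I-BET 762, against 29.9% of all genes, and 8 (23.5%) fell, against 31.3%.

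Members thus moved in both directions. The median log2 fold change of the members was 0.03 with JQ1 and 0.08 with I-BET 762, beside 0.01 and -0.001 over all genes. The median size of the change, whatever its sign, was 0.36 and 0.28 for the members and 0.43 and 0.33 for all genes. Both comparisons use the same DMSO libraries, so they are not independent. When libraries were scaled to equal totals instead of by the deposited factors, the median of all genes shifted to -0.18 with JQ1 and -0.10 with I-BET 762, and that of the members to -0.15 and -0.02. Of all calls with JQ1, 36.9% were higher under the deposited scaling and 22.3% under equal totals, and the members that passed with JQ1 went from 15 up and 11 down to 8 up and 15 down. EBP and FADS2 were then called down as well. The changes given below are relative to the deposited scaling.

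**Figure D1:**
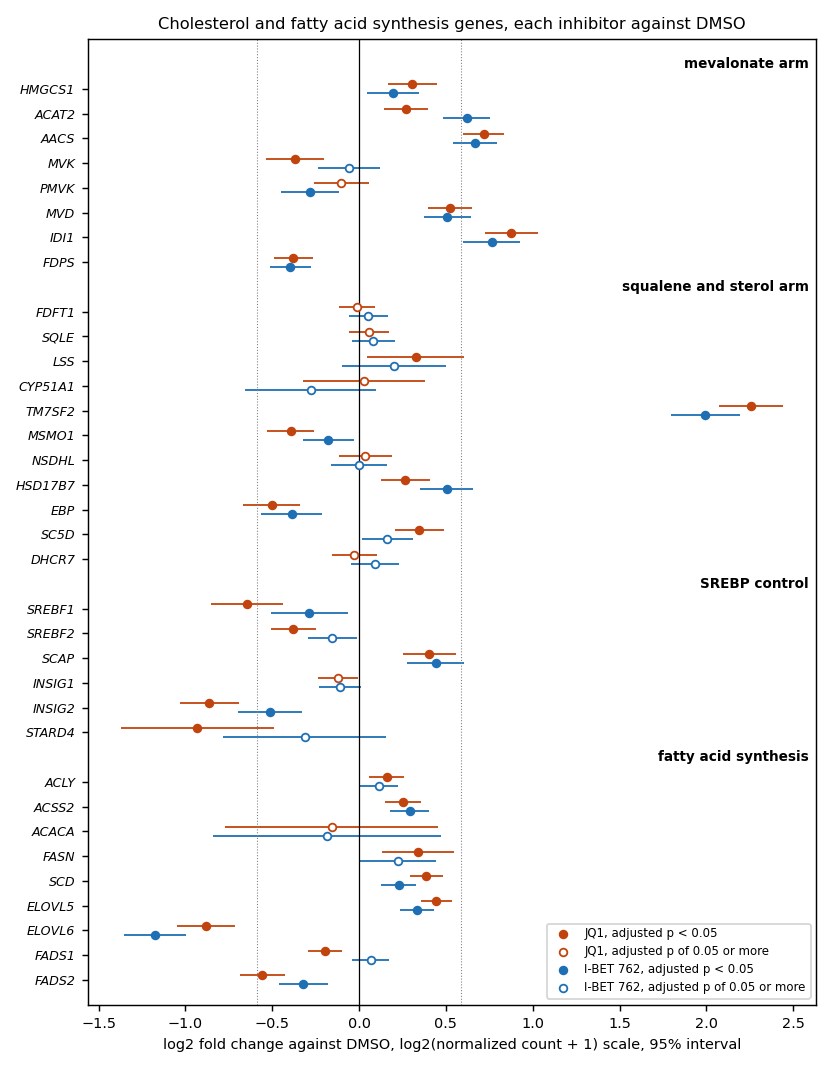
Log2 fold change of each of the 34 genes against DMSO (horizontal axis, log2(normalized count + 1) scale) by role, for JQ1 and I-BET 762. Points are limma estimates with 95% intervals, filled where the adjusted p is under 0.05, and dotted lines mark 1.5-fold. TM7SF2 stands far to the right at 2.26 and 1.99, and ELOVL6 lies farthest left with I-BET 762 at -1.18.

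Promoter sequence is shown for 3 members because they mark the extremes of the data: TM7SF2 had the largest rise, ELOVL6 the largest fall with I-BET 762, and SREBF2 alone held the letters of the sterol response element. The stretches come from the RefSeq promoter windows of build GRCh38.p14, which run from 250 bases before to 50 after an annotated start, and are written 5′ to 3′ on the strand of the gene. Capitals mark CCAAT or its reverse complement ATTGG (the box of the factor NF-Y), GGGCGG or its reverse complement CCGCCC (the box of Sp1), and TCACCCCAC (the core of the sterol response element).
TM7SF2: CCGCCCccgagcgccgATTGGctggtgt
ELOVL6: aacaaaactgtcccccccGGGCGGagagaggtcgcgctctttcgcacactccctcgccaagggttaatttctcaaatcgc
SREBF2: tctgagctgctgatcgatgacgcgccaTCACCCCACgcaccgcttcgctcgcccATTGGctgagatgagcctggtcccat
The TM7SF2 stretch lies at chr11:65111782-65111809 on the plus strand, inside the last exon of its upstream neighbour VPS51. That of ELOVL6 lies at chr4:110198676-110198755 on the minus strand, and that of SREBF2 at chr22:41832945-41833024 on the plus strand, within an exon of the antisense RNA SREBF2-AS1.

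Windows were matched for 30 of the 34 members, 41 windows in all. CCAAT on either strand was present in 26 of these (63.4%), against 34.6% of all 35116 windows, and GGGCGG on either strand in 36 (87.8%), against 45.0%. NF-Y and Sp1 are known partners of SREBP. The windows of all genes were counted whether or not those genes were tested here, whereas every member was tested. The shares therefore compare unlike sets. TCACCCCAC was present in 1 member window, that of SREBF2, against 0.43% of all windows, and the looser TCACNCCAC, which includes it, was found in the same window and in 1.13% of all. The 8 members with a window but no CCAAT went both ways with JQ1. AACS and SCAP rose, SREBF1, INSIG2, ELOVL6 and FADS1 fell, and PMVK and CYP51A1 did not pass the test. The 22 members with CCAAT also went both ways. HMGCS1, MVD, IDI1, LSS, TM7SF2, HSD17B7, SC5D, ACLY, ACSS2, SCD and ELOVL5 rose, and MVK, FDPS, MSMO1, EBP, SREBF2, STARD4 and FADS2 fell. Of all genes, 36.0% rose and 35.6% fell with JQ1. A link between motif and direction was not tested. A match of letters is a description and not a site of binding.

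In the mevalonate arm, which turns acetyl-CoA into farnesyl diphosphate, genes at the entry and at the isomerase step were higher in treated cells while others were lower. With JQ1, 5 of the 8 genes rose, 2 fell and 1 did not pass the test, and with I-BET 762 the counts were the same, though MVK and PMVK exchanged places. The 5 that rose are 62.5% of the arm, against 36.0% of all genes with JQ1 and 29.9% with I-BET 762, and the 2 of 8 that fell stand against 35.6% and 31.3%. These counts depend on the scaling. Under equal totals HMGCS1 did not pass with either inhibitor, ACAT2 did not pass with JQ1, and PMVK passed as lower with JQ1. IDI1, the isomerase that balances the isoprenoid building blocks (chr10:1039152-1049119), had 2156, 2515 and 2556 normalized counts in DMSO. It had 4372, 4978, 4389 and 3967 in JQ1 and 4065, 4244 and 3939 in I-BET 762. Every treated library was above every DMSO library. By limma, IDI1 rose by a log2 fold change of 0.88 (SE 0.07, adjusted p = 1.99e-08) with JQ1 and 0.76 (SE 0.08, adjusted p = 4.22e-07) with I-BET 762.

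AACS, a cytosolic synthetase that feeds ketone bodies into sterol and fatty acid synthesis (chr12:125065434-125143333), moved in the same way. Its counts were 2100, 2032 and 1992 in DMSO, then 3309, 3069, 3399 and 3684 in JQ1 and 3262, 3276 and 3189 in I-BET 762. The groups did not overlap with DMSO, and limma gave log2 fold changes of 0.72 (SE 0.06, adjusted p = 1.02e-08) and 0.67 (SE 0.06, adjusted p = 1.11e-07). Under equal totals AACS still rose but no longer passed 1.5-fold, at 0.53 and 0.57.

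ACAT2, the cytosolic thiolase of the entry step (chr6:159762045-159779112), was the mevalonate gene in which the inhibitors parted most. It had 4752, 5149 and 5056 normalized counts in DMSO and 5581, 6760, 5940 and 5850 in JQ1. The I-BET 762 libraries, at 7764, 7851 and 7359, were above all others. The log2 fold change was 0.27 (SE 0.06, adjusted p = 0.000662, limma) with JQ1 and 0.62 (SE 0.06, adjusted p = 4.89e-07) with I-BET 762. JQ1 under equal totals gave 0.09 (adjusted p = 0.0929). In the gene models 22.2% of the exon bases of ACAT2 overlap other genes on the opposite strand, mainly TCP1, as do 37.7% of those of HMGCS1, 18.6% of FDPS and 15.0% of IDI1, and the strand setting of the counting is not given in the sources used here.

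HMGCS1, the HMG-CoA synthase and a classic SREBP target (chr5:43287470-43313512), rose little. Its counts were 2499, 2743 and 2713 in DMSO, 3188, 3742, 3088 and 3125 in JQ1, and 2965, 3226 and 2917 in I-BET 762. Treated and DMSO libraries did not overlap, yet the log2 fold changes were only 0.31 (SE 0.07, adjusted p = 0.000626, limma) and 0.20 (SE 0.07, adjusted p = 0.0256). Neither rise passed under equal totals, at 0.12 (adjusted p = 0.0559) and 0.10 (adjusted p = 0.149). The rise with I-BET 762 also did not pass without DMSO replicate 13 (adjusted p = 0.108) or without I-BET 762 replicate 22 (adjusted p = 0.124).

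The other mevalonate genes went both ways. MVD, the decarboxylase, rose from 756 ± 28.1 normalized counts (SD, n = 3) to 1088 ± 64.2 (n = 4) with JQ1 and 1075 ± 17.6 (n = 3) with I-BET 762. FDPS, which makes farnesyl diphosphate, fell from 5196 ± 126 to 3998 ± 261 and 3952 ± 149, with no overlap of the groups. MVK, the mevalonate kinase, fell from 484 ± 21.6 to 375 ± 13.8 with JQ1 and stood at 466 ± 42.9 with I-BET 762, where limma gave an adjusted p of 0.569. PMVK, the next kinase, fell from 596 ± 29.3 to 491 ± 42.3 with I-BET 762 and had 555 ± 22.4 with JQ1 (adjusted p = 0.228 by limma). Under equal totals PMVK passed as lower with JQ1 (-0.29, adjusted p = 0.00263, limma).

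**Figure D2:**
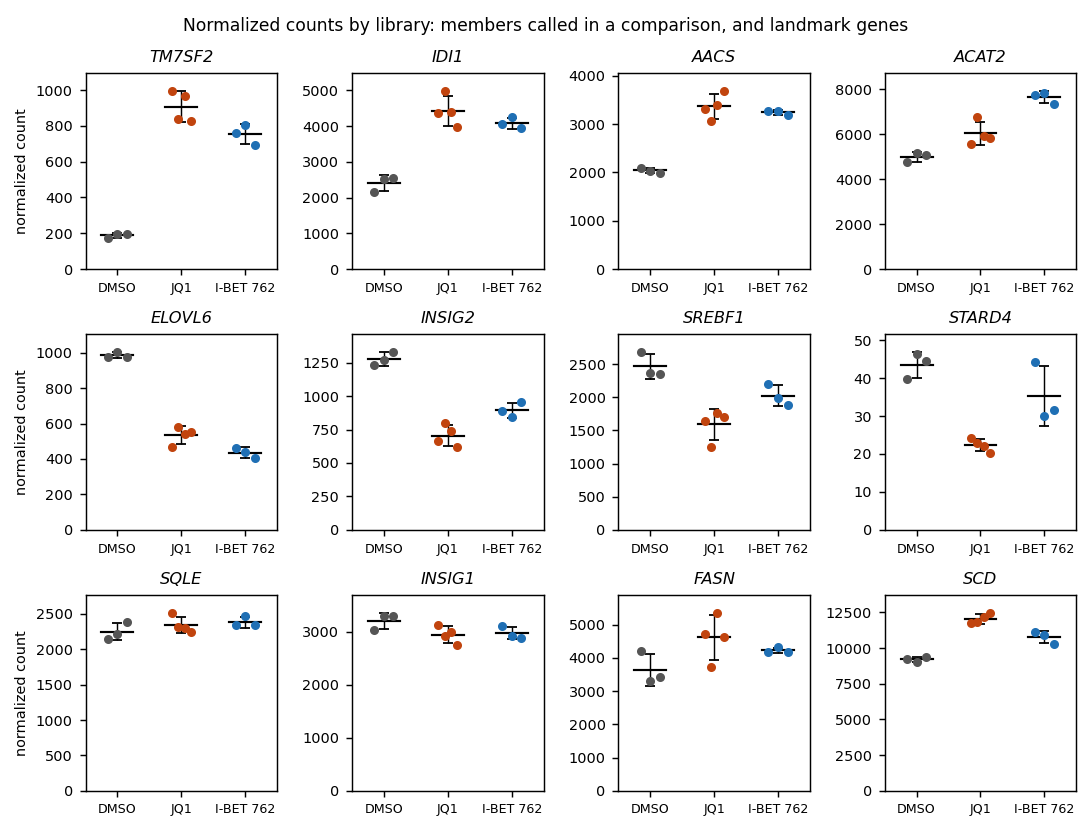
Normalized counts in each library (vertical axis from 0) for 12 genes in DMSO, JQ1 and I-BET 762. Points are libraries, horizontal bars are group means and whiskers are 1 SD. TM7SF2 goes from under 200 in DMSO to at least 694 in every treated library, whereas SQLE and INSIG1 overlap between groups.

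The squalene and sterol arm converts farnesyl diphosphate into cholesterol, and a single gene of its 11 (9.09%), TM7SF2, was called, up with each inhibitor. Of all genes, 13.3% were called up with JQ1 and 8.96% with I-BET 762, and 22.8% and 17.9% were called down. By adjusted p alone, 4 (36.4%) of the arm rose and 2 (18.2%) fell with JQ1, against 36.0% and 35.6% of all genes. With I-BET 762, 2 (18.2%) rose and 2 (18.2%) fell, against 29.9% and 31.3%. TM7SF2 encodes the sterol reductase that follows the lanosterol demethylase, a step that the nuclear envelope protein LBR also performs (chr11:65111845-65116384). It had 173, 193 and 198 normalized counts in the DMSO libraries. JQ1 libraries held 994, 838, 967 and 828, and I-BET 762 libraries 762, 805 and 694. All treated libraries were far above DMSO, and the lowest JQ1 library was above the highest I-BET 762 library.

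The log2 fold change of TM7SF2 was 2.26 (SE 0.09, adjusted p = 2.58e-12, limma) with JQ1, a 4.79-fold rise, and 1.99 (SE 0.09, adjusted p = 7.49e-11) with I-BET 762, a 3.99-fold rise. Both were called in all 20 alternative settings, between 2.07 and 2.30 and between 1.90 and 2.05. VPS51, which ends within the beginning of TM7SF2 on the same strand and shares 18 exon bases with it, had 1988 to 2192 normalized counts in DMSO, 1835 to 2583 in JQ1 and 1903 to 1956 in I-BET 762. Its log2 fold changes, 0.09 and -0.12, did not pass (adjusted p = 0.423 and 0.324 by limma). VPS51, and LBR below, were named after their position or role and their values were seen.

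LBR, the alternative sterol reductase, rose less, by 0.39 with JQ1 and 0.42 with I-BET 762 on the log2 scale. Per kilobase of the canonical transcript, LBR was at 2327 ± 143 normalized counts in DMSO (SD, n = 3) against 119 ± 8.37 for TM7SF2. The ratio of TM7SF2 to LBR per length was 0.0504 to 0.0526 in the DMSO libraries, 0.163 to 0.207 in JQ1 and 0.145 to 0.162 in I-BET 762. LBR thus stayed the more abundant transcript in each library.

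Of the sterol enzymes that act after TM7SF2, MSMO1 and EBP fell and HSD17B7 rose. MSMO1, which oxidises the methyl groups of the next intermediate, fell from 1106 ± 60.9 normalized counts (SD, n = 3) to 842 ± 54.6 with JQ1 (n = 4) and to 977 ± 4.70 with I-BET 762 (n = 3). The fall with I-BET 762 was -0.18 on the log2 scale (adjusted p = 0.0345, limma), and leaving out DMSO replicate 14 or 15 or any 1 of the 3 I-BET 762 libraries raised the adjusted p to between 0.0699 and 0.141. EBP, the sterol isomerase, fell from 654 ± 50.1 to 461 ± 34.2 with JQ1 and to between 488 and 508 with I-BET 762. HSD17B7, the ketoreductase, rose from 739 ± 31.1 to 891 ± 56.3 and 1050 ± 62.6, though its JQ1 value under equal totals, 0.08, did not pass (adjusted p = 0.243, limma), and 32.2% of 75-base stretches of its exons have an exact copy elsewhere on the primary chromosomes. Of EBP, 36.4% of exon bases also belong to another gene model on the same strand.

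SC5D, the desaturase near the end of the path, rose from 2024 ± 54.1 to 2584 ± 246 with JQ1 and had 2267 ± 111 with I-BET 762 (adjusted p = 0.0535, limma). SQLE, the squalene epoxidase and a second point of flux control, had 2148, 2223 and 2381 normalized counts in DMSO. It had 2517, 2315, 2300 and 2247 in JQ1 and 2337, 2470 and 2337 in I-BET 762. The groups overlapped, and the log2 fold changes were 0.06 (95% interval -0.06 to 0.17) and 0.08 (-0.04 to 0.20). SQLE has no settled direction, since limma-voom on reads scaled to totals put the JQ1 value at -0.13 (adjusted p = 0.046).

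FDFT1 (squalene synthase), NSDHL (the C4 decarboxylating dehydrogenase) and DHCR7 (the last reductase of the main route) also did not pass with either inhibitor, with log2 fold changes from -0.03 to 0.09. Under equal totals, however, FDFT1 (-0.20, adjusted p = 0.000188) and DHCR7 (-0.21, adjusted p = 0.014) passed as lower with JQ1. LSS, the lanosterol synthase, gave 0.33 with JQ1 (adjusted p = 0.0365, limma), and the groups overlapped. Without DMSO replicate 13 or JQ1 replicates 17, 19 or 20 the LSS value no longer passed (adjusted p = 0.0658 to 0.18). CYP51A1, the lanosterol demethylase, had only 70.9 to 137 normalized counts per library. These last counts are uncertain: 87.4% of the 75-base exon stretches of LSS have an exact copy on alternate contigs, and 68.2% of the exon bases of CYP51A1 also belong to longer gene models on the same strand.

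The 6 control genes, which include the sterol carrier STARD4, were the group with the lowest medians. These were -0.51 with JQ1 and -0.22 with I-BET 762 on the log2 scale. With JQ1, 4 (66.7%) fell, against 35.6% of all genes, and 1 rose. With I-BET 762, 2 (33.3%) fell, near the 31.3% of all genes, and 1 rose. INSIG2, which retains SCAP (chr2:118088452-118110997), had 1230, 1267 and 1330 normalized counts in DMSO. It had 666, 798, 737 and 617 in JQ1 and 888, 841 and 953 in I-BET 762. The 3 groups did not overlap, and limma gave -0.86 (SE 0.08, adjusted p = 9.10e-08) and -0.51 (SE 0.09, adjusted p = 8.91e-05). INSIG2 was called with I-BET 762 only under equal totals or limma-voom on reads scaled to totals.

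INSIG1, its better known paralog and a direct SREBP target (chr7:155297776-155310235), differed less from DMSO. Counts were 3033, 3299 and 3289 in DMSO, 3129, 2916, 2988 and 2752 in JQ1, and 3109, 2921 and 2891 in I-BET 762. The groups overlapped. The log2 fold changes were -0.12 (95% interval -0.24 to -0.01, adjusted p = 0.0517, limma) and -0.11 (-0.23 to 0.01, adjusted p = 0.115), the latter -0.20 under equal totals (adjusted p = 0.00562). The JQ1 value lay at the threshold: it passed without DMSO replicate 13 (adjusted p = 0.0247), without JQ1 replicate 17 (adjusted p = 0.0232) and, at -0.31, under equal totals. The per-length ratio of INSIG1 to INSIG2 was 3.02 to 3.19 in DMSO, 4.48 to 5.76 in JQ1 and 3.72 to 4.29 in I-BET 762.

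SREBF1, which encodes the SREBP isoforms tied most to fatty acid synthesis (chr17:17810399-17837002), had 2684, 2362 and 2356 normalized counts in DMSO. It had 1647, 1244, 1762 and 1707 in JQ1 and 2193, 1990 and 1888 in I-BET 762, and no JQ1 library reached a library of another group. The log2 fold change was -0.64 (SE 0.10, adjusted p = 2.22e-05, limma) with JQ1. JQ1 replicate 18 was the lowest library, and without it the value was -0.53, under 1.5-fold though still past the adjusted p threshold. Leaving out DMSO replicate 13 also brought it under 1.5-fold. With I-BET 762 it was -0.29 (SE 0.11, adjusted p = 0.0272), which did not pass without DMSO replicate 13 (adjusted p = 0.113), I-BET 762 replicate 22 (adjusted p = 0.0709) or I-BET 762 replicate 23 (adjusted p = 0.111).

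SREBF2, the gene of the SREBP tied most to cholesterol synthesis (chr22:41833105-41907306), showed a smaller shift. It had 2070, 1874 and 1886 normalized counts in DMSO, 1480, 1347, 1572 and 1589 in JQ1, and 1782, 1705 and 1745 in I-BET 762. The 3 groups did not overlap. SREBF2 fell by 0.38 (SE 0.06, adjusted p = 4.88e-05, limma) on the log2 scale with JQ1. With I-BET 762 the value was -0.15 (95% interval -0.30 to -0.01, adjusted p = 0.0551), and it passed in 6 of the alternatives, including equal totals (-0.25, adjusted p = 0.0139). The messenger level says nothing of how much SREBP was cleaved.

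SCAP, the escort, rose, from 2535 ± 211 normalized counts (SD, n = 3) to 3362 ± 351 with JQ1 (n = 4) and 3435 ± 48.4 with I-BET 762 (n = 3). STARD4, which carries cholesterol between membranes (chr5:111496033-111512590), was the least abundant member. It had 39.7, 46.2 and 44.6 normalized counts in DMSO, 24.2, 22.9, 22.0 and 20.3 in JQ1, and 44.3, 30.1 and 31.5 in I-BET 762. JQ1 lay below all other libraries, and limma gave -0.93 (SE 0.21, adjusted p = 0.000776). With I-BET 762 the value was -0.31 (SE 0.22, adjusted p = 0.234).

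Of the 9 fatty acid synthesis genes, 5 (55.6%) rose and 3 (33.3%) fell with JQ1, against 36.0% and 35.6% of all genes. With I-BET 762, 3 (33.3%) rose and 2 (22.2%) fell, against 29.9% and 31.3%. ELOVL6, the elongase that extends palmitate to stearate (chr4:110045846-110199199), had 973, 1004 and 976 normalized counts in DMSO. It had 466, 581, 541 and 554 in JQ1 and 462, 442 and 404 in I-BET 762. All treated libraries lay far below DMSO, and those of I-BET 762 were below those of JQ1. The fall was -0.88 (SE 0.08, adjusted p = 5.71e-08, limma) with JQ1 and -1.18 (SE 0.08, adjusted p = 9.96e-09) with I-BET 762, and both were called in all 20 alternatives.

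ELOVL5, the elongase of polyunsaturated fatty acids, moved the other way. It rose from 7484 ± 157 normalized counts (SD, n = 3) to 10190 ± 292 with JQ1 (n = 4) and 9433 ± 161 with I-BET 762 (n = 3). The ratio of ELOVL5 to ELOVL6 per length was 17.8 to 18.3 in DMSO, 43.1 to 51.0 in JQ1 and 48.4 to 54.7 in I-BET 762.

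SCD, the desaturase that makes oleate (chr10:100347233-100364826), had 9219, 9040 and 9394 normalized counts in DMSO. The counts were 11754, 11801, 12207 and 12480 in JQ1 and 11120, 10947 and 10317 in I-BET 762. The groups were ordered without overlap, and SCD rose by 0.39 (SE 0.04, adjusted p = 9.39e-07, limma) and 0.23 (SE 0.05, adjusted p = 0.000629) on the log2 scale. FASN, the fatty acid synthase (chr17:82078338-82098294), had 4200, 3306 and 3409 in DMSO, 4725, 3730, 5355 and 4640 in JQ1, and 4168, 4318 and 4178 in I-BET 762. The FASN groups overlapped through DMSO replicate 13 and JQ1 replicate 18. FASN rose by 0.34 (SE 0.10, adjusted p = 0.00562) with JQ1, which under equal totals was 0.15 (adjusted p = 0.25). With I-BET 762 FASN gave 0.22 (SE 0.10, adjusted p = 0.0766), and it passed without DMSO replicate 13 (0.33, adjusted p = 0.013), JQ1 replicate 18 (adjusted p = 0.0145) or JQ1 replicate 19 (adjusted p = 0.0485).

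ACLY, which makes cytosolic acetyl-CoA from citrate, was the most abundant member per length, at 4318 ± 24.9 normalized counts per kilobase in DMSO (SD, n = 3). It rose by 0.16 with JQ1 on the log2 scale (adjusted p = 0.00753, limma), but equal totals turned that value to -0.03 (adjusted p = 0.591), and with I-BET 762 it gave 0.12 (adjusted p = 0.0601). ACSS2, which makes acetyl-CoA from acetate, rose from 2139 ± 54.1 to 2553 ± 118 and 2616 ± 53.2 normalized counts, and under equal totals the JQ1 value, 0.07, did not pass (adjusted p = 0.128). ACACA, the carboxylase that makes malonyl-CoA, had 139 to 379 normalized counts and overlapping groups. Of its 75-base exon stretches 98.6% have an exact copy on alternate contigs, so its level here is uncertain.

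FADS2 and FADS1, neighbouring desaturases of polyunsaturated fatty acids on chromosome 11, parted from SCD. FADS2 fell from 4407 ± 143 normalized counts (SD, n = 3) to 3002 ± 238 with JQ1 (n = 4) and 3533 ± 235 with I-BET 762 (n = 3). FADS1 fell from 3010 ± 50.4 to 2628 ± 113 with JQ1 and had 3154 ± 55.6 with I-BET 762 (adjusted p = 0.253, limma). The pair overlap on opposite strands over 490 exon bases.

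JQ1 and I-BET 762 were given at equal dose and time, so they were set against each other directly, in 34 differences adjusted over all 14839 genes. No value here measures how strongly each dose inhibited BET proteins. A difference in compound and one in strength of inhibition therefore cannot be told apart. Over all genes the median size of the change against DMSO was 0.43 with JQ1 and 0.33 with I-BET 762. No member (0 of 34) was called higher in JQ1 by limma or by limma-voom, against 1.73% of all genes, and 6 were higher at an unadjusted p under 0.05. STARD4 alone (2.94%) was called lower, against 3.59%. Of all calls between the inhibitors, 32.5% were higher in JQ1, and 17.8% under equal totals, where 1 member was higher and 14 were lower by adjusted p. By adjusted p alone, 4 members (11.8%) were higher in JQ1, against 13.3% of all genes, and 10 (29.4%) were lower, against 14.0%. The median direct difference of the members was 0.00, as for all genes, and that of the 6 control genes was -0.29.

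The differences that stood in all 20 alternatives were those in ACAT2, INSIG2 and FADS1, each lower in JQ1. ACAT2 differed by -0.35 on the log2 scale (95% interval -0.47 to -0.22, adjusted p = 0.000549, limma), INSIG2 by -0.35 (-0.52 to -0.18, adjusted p = 0.00497) and FADS1 by -0.26 (-0.36 to -0.17, adjusted p = 0.000697). The libraries of JQ1 and I-BET 762 did not overlap for any of them. SREBF1 (-0.36, adjusted p = 0.0134) and SREBF2 (-0.22, adjusted p = 0.0146) were also lower in JQ1, and neither passed without I-BET 762 replicate 21 (adjusted p = 0.0822 and 0.0681). Without I-BET 762 replicate 23, SREBF2 gave 0.0517. MVK, MSMO1, HSD17B7 and FADS2 were lower in JQ1 by between 0.22 and 0.31, and each failed to pass when at least 1 I-BET 762 library was left out (adjusted p = 0.0561 to 0.0971).

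STARD4 differed by -0.62 (95% interval -1.06 to -0.18, adjusted p = 0.0368, limma) at 20.3 to 44.3 normalized counts. Leaving out DMSO replicate 14 or 15, JQ1 replicate 19 or 20, or I-BET 762 replicate 21 or 23 raised the adjusted p to between 0.0511 and 0.188. Of the genes higher in JQ1, ELOVL6 (0.29, adjusted p = 0.0122) and SCD (0.16, adjusted p = 0.0141) each failed without I-BET 762 replicate 23 (adjusted p = 0.0751 and 0.0909). TM7SF2 (0.26, 95% interval 0.08 to 0.45, adjusted p = 0.033) failed without JQ1 replicate 17 or 19 or I-BET 762 replicate 21 or 23 (adjusted p = 0.0835 to 0.162). SC5D (0.19, adjusted p = 0.0457) failed without any library but JQ1 replicate 20 (adjusted p = 0.051 to 0.184). Under equal totals SCD (0.07, adjusted p = 0.238, limma), TM7SF2 (0.18, adjusted p = 0.154) and SC5D (0.10, adjusted p = 0.185) also did not pass.

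For the other 20 members no difference between the inhibitors passed in the limma fit above. For 9 of these, among them FDPS, INSIG1, SQLE, MVD and AACS, the 95% interval stayed within 0.19 of zero on the log2 scale. The interval of IDI1 ran from -0.04 to 0.27 and that of FASN from -0.09 to 0.32. For CYP51A1 (-0.04 to 0.66) and ACACA (-0.59 to 0.64) differences beyond 1.5-fold lay inside the interval. Under equal totals FDFT1 (-0.155, adjusted p = 0.00514, limma), DHCR7 (-0.208, 0.0363), EBP (-0.203, 0.0472) and ACSS2 (-0.125, 0.027) passed as lower in JQ1. ELOVL5 (0.11, adjusted p = 0.0483) passed as higher when a mean of at least 100 was required, and FASN (0.21, adjusted p = 0.0365) without JQ1 replicate 18.

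**Figure D3:**
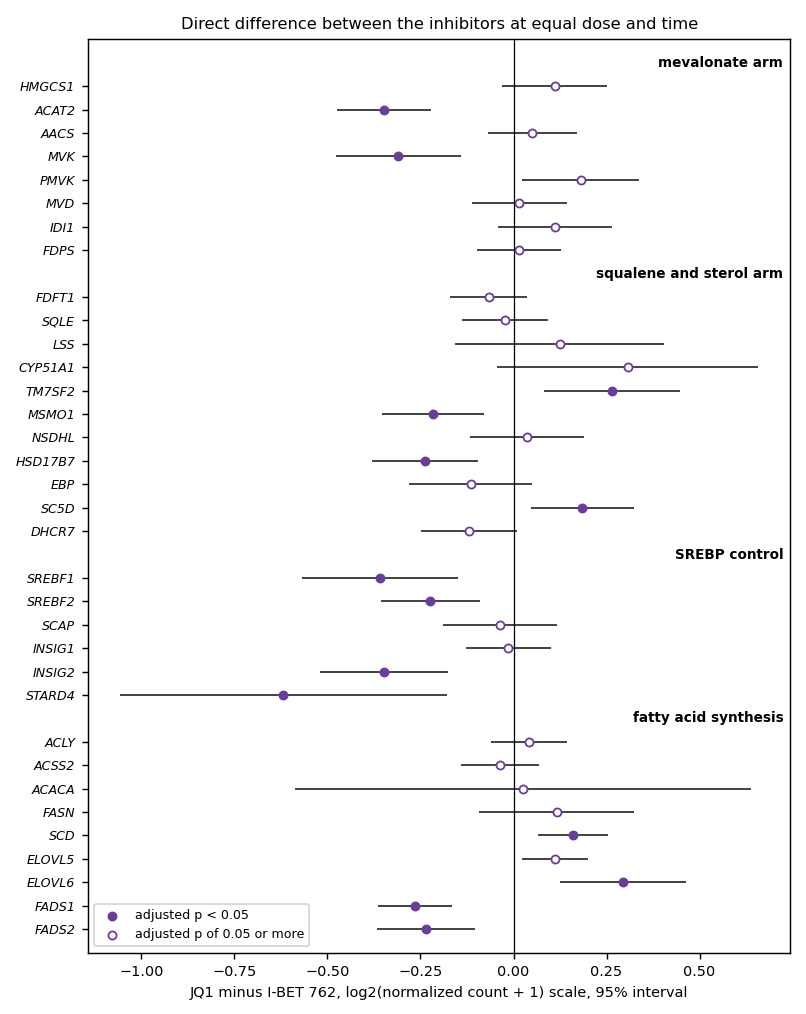
Direct difference of each gene, JQ1 minus I-BET 762 (horizontal axis, log2(normalized count + 1) scale), by role. Points are limma estimates with 95% intervals, filled where the adjusted p is under 0.05. Of the 6 genes that control SREBP or move sterol (SREBP control), 4 are filled and lie left of zero, with the sterol carrier STARD4 at -0.62. TM7SF2 and ELOVL6 lie to the right at 0.26 and 0.29.

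Per kilobase of canonical transcript, ACLY, FDPS, ACAT2, ELOVL5 and FDFT1 led the members in DMSO, at 4318, 3667, 3280, 2707 and 2371 normalized counts, each differing from the next by more than the SDs of both. STARD4 was last at 9.39 ± 0.73 and ACACA next to last at 25.6 ± 8.53. TM7SF2 moved from place 30 of 34 in DMSO to place 18 with JQ1, and ELOVL6 from place 29 to place 31. Summed per kilobase, the 8 mevalonate genes gave 9772 to 10376 in the DMSO libraries, 10847 to 12275 in JQ1 and 11723 to 12457 in I-BET 762. The 9 fatty acid genes gave 12213 to 12271, 13491 to 14437 and 13260 to 13670. The 6 control genes gave 2900 to 2992 in DMSO, 2435 to 2683 in JQ1 and 2782 to 2915 in I-BET 762. The 11 squalene and sterol genes gave 6035 to 6327, 6512 to 6852 and 6628 to 6900. These sums use the deposited scaling and were not recomputed under equal totals. That setting shifted the median log2 fold change of all genes to -0.18 with JQ1 and -0.10 with I-BET 762.

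Genes around the pathway were counted from lists of related function, by the 1.5-fold call unless stated. Of all genes, JQ1 had 13.3% called up and 22.8% down, and I-BET 762 had 8.96% and 17.9%. Among the other sterol enzymes, 1 of 4 tested was called down by each inhibitor: FAXDC2, a member of the fatty acid hydroxylase superfamily to which MSMO1 and SC5D belong, at -2.01 with JQ1 and -1.22 with I-BET 762. In sterol uptake and transport, JQ1 brought 2 (11.8%) called up and 3 (17.6%) called down of 17. I-BET 762 brought 1 (5.88%) and 3 (17.6%), so no share exceeded that of all genes. Among those called down, LRP1, a large endocytic receptor, fell by 1.42 and 1.26 on the log2 scale, and GRAMD1B, a sterol transporter at membrane contacts, by 1.37 and 0.85.

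Among 10 genes of the liver X receptor (LXR) response, efflux and oxysterols, 2 (20.0%) were called up and 2 (20.0%) down by each inhibitor. The shares of all genes were 13.3% up and 22.8% down with JQ1, and 8.96% and 17.9% with I-BET 762. CH25H, which makes 25-hydroxycholesterol, an oxysterol that binds INSIG and holds SREBP back, had 37.0 to 51.0 normalized counts in DMSO. It had 274 to 335 in JQ1 and 117 to 132 in I-BET 762. CH25H rose by 2.79 and 1.51 on the log2 scale, and the direct difference of 1.28 passed (adjusted p = 5.40e-06, limma). CYP46A1, another sterol hydroxylase, rose by 1.37 and 1.79 from 14.6 to 18.5 normalized counts, and the cholesterol exporter ABCA1 fell by 1.30 and 1.11 from 31.4 to 32.9. Of 11 genes for SREBP processing and degradation, JQ1 had 2 called (18.2%), both up, and 0 under limma-voom on reads scaled to totals. I-BET 762 had 0 called by limma or limma-voom, with 10 at an unadjusted p under 0.05. By adjusted p alone, 7 (63.6%) rose and 3 (27.3%) fell with JQ1, against 36.0% and 35.6% of all genes, and 8 (72.7%) rose and 2 (18.2%) fell with I-BET 762, against 29.9% and 31.3%. UBE2G2 (0.61 and 0.42) and FBXW7 (0.60 and 0.50), both of protein degradation, were the genes called with JQ1.

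Among 15 users of isoprenoids, 1 (6.67%) was called up and 2 (13.3%) down with JQ1, against 13.3% and 22.8% of all genes. With I-BET 762 limma and limma-voom called 0, against 8.96% up and 17.9% down of all genes. Of the 15, 9 had an unadjusted p under 0.05 with I-BET 762. By adjusted p alone, 8 (53.3%) rose and 4 (26.7%) fell with JQ1, against 36.0% and 35.6% of all genes, and 5 (33.3%) rose and 3 (20.0%) fell with I-BET 762, against 29.9% and 31.3%. GGPS1, which makes geranylgeranyl diphosphate from the product of FDPS, rose by 0.96 and 0.58, whereas the prenyltransferase subunits RABGGTA (-0.65 and -0.24) and FNTB (-0.59 and -0.35) fell. Of the exon bases of GGPS1, 37.3% also belong to another gene model on the same strand, and those of FNTB are shared in part with the readthrough CHURC1-FNTB. Of 18 tested genes of elongation and activation, 5 (27.8%) were called up by JQ1 and 2 (11.1%) called down, and I-BET 762 gave 1 (5.56%) and 2 (11.1%). ACSL1, which activates fatty acids to their CoA esters, rose by 1.17 and 0.85, while ACSL5 fell by 1.01 and 2.08 at 32.9 normalized counts or fewer per library, with overlap between JQ1 and DMSO.

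SCD5, the second human stearoyl-CoA desaturase, fell by 1.33 with JQ1 and 0.70 with I-BET 762 on the log2 scale, the reverse of SCD. The per-length ratio of SCD to SCD5 was 5.23 to 5.92 in DMSO, 17.6 to 19.2 in JQ1 and 10.6 to 10.7 in I-BET 762, so the 3 groups did not overlap. Of 11 tested genes of lipogenic supply and glycerolipids, 3 (27.3%) were called up and 3 (27.3%) down by each inhibitor. For all genes the shares were 13.3% up and 22.8% down with JQ1, and 8.96% and 17.9% with I-BET 762. DGAT1 and DGAT2 encode unrelated enzymes for the last step of triglyceride synthesis. DGAT1 rose by 1.78 and 1.16, and DGAT2 fell by 0.97 and 0.88. The DGAT1 to DGAT2 ratio was 0.568 to 0.588 in DMSO, 3.47 to 4.13 in JQ1 and 2.199 to 2.611 in I-BET 762, so the more abundant of the pair per length changed. AGPAT3, an acyltransferase for phosphatidic acid, fell by 1.22 and 0.74. The gene pairs were chosen after their values were seen.

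Among 14 tested genes of fatty acid oxidation, 1 (7.14%) was called up and 1 (7.14%) down with JQ1, against 13.3% and 22.8% of all genes. I-BET 762 had 1 (7.14%) called up and 0 down, against 8.96% and 17.9%. By adjusted p alone, 8 (57.1%) rose and 4 (28.6%) fell with JQ1, against 36.0% and 35.6% of all genes, and 7 of 14 rose and 2 (14.3%) fell with I-BET 762, against 29.9% and 31.3%. ACADVL, the very long chain acyl-CoA dehydrogenase, went from between 5888 and 6069 normalized counts in DMSO to between 15876 and 16978 in JQ1 and between 12176 and 12632 in I-BET 762. PPARA, the receptor that activates oxidation genes, fell by 0.61 with JQ1 and gave -0.09 with I-BET 762 (adjusted p = 0.37, limma).

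**Figure D4:**
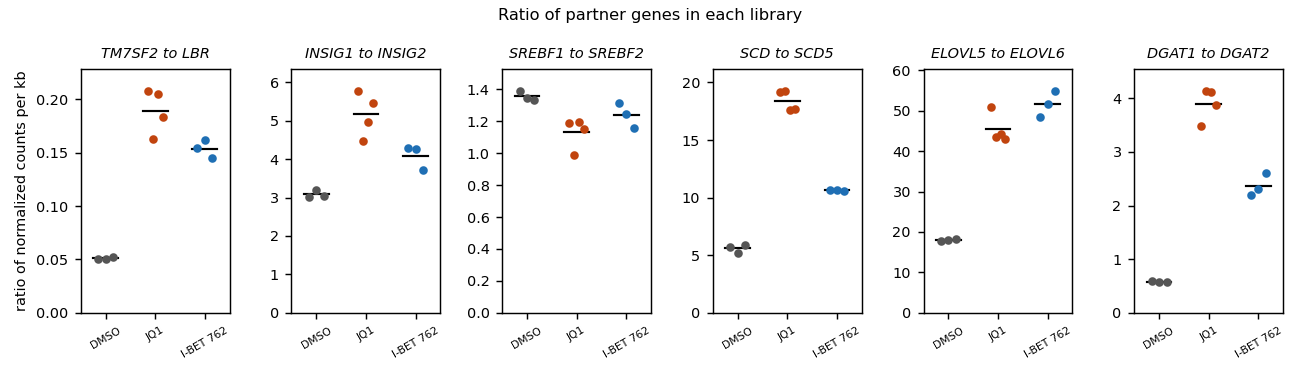
Ratio of 6 gene pairs in each library (vertical axis from 0, ratio of normalized counts per kilobase of canonical transcript). Points are libraries and bars are group means. The DGAT1 to DGAT2 ratio goes from under 1 in all DMSO libraries to at least 2.199 in all treated ones, and the SCD to SCD5 ratio separates the 3 groups.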

How the data were processed

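Groups follow the treatment that the labels give each SK-UT-1 library. According to the study's methods and the submitters' processing notes, reads were checked (FastQC 0.73) and trimmed (Trimmomatic), placed on hg38 by HISAT2 2.2.1, counted with featureCounts 2.0.3 on Gencode V41 and normalized with DESeq2, and outlier samples were excluded. The authors deposited 1 value per gene symbol on the log2 scale, after adding 1 to the normalized count, and these ran from 0 to 20.5. Undoing the log gave whole multiples of 1 read (within 0.1 read) for 99.8% of the values in each library and for all members. Precision is set by depth. A gene without reads could still have up to 3 reads, worth 2.73 to 3.30 normalized counts (counting error only).

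A linear model was fitted to them by limma 3.58.1 under R 4.3.3 (10 libraries in one model, intensity trend, Benjamini-Hochberg adjustment over 14839 genes), for JQ1 against DMSO, I-BET 762 against DMSO and JQ1 against I-BET 762. Fold changes are on the log2(normalized count + 1) scale, which understates those of low genes. Simulated libraries, in which 200 genes were changed 2-fold, served to check the code. Of the 198 changed genes that could be tested, 177 were called in JQ1 against DMSO and 176 in I-BET 762 against DMSO. Unchanged genes called numbered 1 and 4, and 14656 genes were tested in all, the changed ones included. In the real libraries a far larger share moved, 36.0% up and 35.6% down with JQ1 by adjusted p. The simulated counts therefore check the code and are not error rates for these data. The members, lists and tests were chosen with earlier results of these data known. All members were described. Each library's value and full statistics were given for those called in any comparison and for HMGCS1, SQLE, INSIG1, SREBF1, SREBF2, FASN and SCD. Outside the members, up to 3 genes per list with the largest change with JQ1 among those called with either inhibitor were named, and some of the genes so chosen are not reported here. Gene positions, canonical lengths and exon overlaps came from Gencode V44 (GRCh38). Exon copies were exact 75-base matches in hg38. Tables and plots were made with Python 3.11.15, numpy 2.4.6, pandas 2.3.3, scipy 1.17.1 and matplotlib. Pseudocount, filter, scaling, trend, thresholds, the test and each library were varied.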

Additional observations from a re-analysis of the deposited data

Results flagged for a closer look

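The 34 members were each tested for a JQ1 library that stood apart from the other 3 (Dixon's test at 95%), the other groups being too small, and 5 were found, where chance gives about 1 in 20. JQ1 replicate 18 was the high library for HMGCS1 (3742 normalized counts), PMVK (588.6) and ELOVL5 (10623). JQ1 replicate 20 was the high library for FADS1 (2797) and its neighbour FADS2 (3357). Without that library FADS2 was called down with JQ1. JQ1 replicate 18 had the highest value of the JQ1 group for 14 of the 34 members and the lowest for 10.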

How the results depend on the processing

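No paired analysis was possible because the replicate numbers 13 to 24 all differ. The edgeR, DESeq2 and TMM alternatives were not run. The recovered reads were tested with limma-voom only. Called members in JQ1 against DMSO numbered 3 up and 4 down, 2 and 6 under equal totals and under limma-voom on recovered reads, 15 and 11 with no fold threshold, and 1 and 0 at 2-fold. Leaving out 1 library gave 3 up and 3 to 5 down (3 without DMSO replicate 13 or JQ1 replicate 18, 5 without JQ1 replicate 20). In I-BET 762 against DMSO, 4 up and 1 down became 2 and 2 under equal totals and under limma-voom on recovered reads, 11 and 8 with no fold threshold, and 1 up and 1 down at 2-fold. In JQ1 against I-BET 762, 0 up and 1 down became 4 and 10 with no fold threshold, and 0 down at 2-fold, with pseudocount 5, with all genes above 0, with a mean of at least 100 (which leaves STARD4 out), with only the compared groups, and under limma-voom with the authors' scaling factors, chosen after seeing the data. Leaving out 1 library gave 0 to 1 down. Sign changes of single members were counted only where the value passed in the limma fit above or in the alternative. With JQ1 they were found for ACLY under equal totals (-0.027) and limma-voom on recovered reads (-0.027), and for SQLE under the latter (-0.128). Under these 2 settings the members' median was -0.151 and -0.149 with JQ1, -0.022 and -0.022 with I-BET 762, and -0.088 and -0.089 between the inhibitors. Leaving out 1 library gave 0.005 to 0.064, 0.056 to 0.085 and -0.020 to 0.000. The cause was not tested. Members that passed and stayed past the adjusted p threshold in all 20 alternatives (19 for STARD4) numbered 19 of 26 with JQ1, 16 of 19 with I-BET 762 and 3 of 14 between the inhibitors. Leaving out ACACA, LSS, CYP51A1 and HSD17B7, also chosen after seeing the data, could not change a count of called members, since none of them was called. At STARD4's depth of 20.3 to 46.2 normalized counts only large changes could be resolved.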
